A study of Mus musculus with 4 samples.

Results

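The 10 cathepsin genes Ctsa, Ctsb, Ctsc, Ctsd, Ctse, Ctsh, Ctsk, Ctsl, Ctss and Ctsz were followed in mouse bone marrow cells enriched for blood stem cells. They were chosen on the values of these arrays, deficient against control, and taken by name, each from a probe set that the platform annotation assigns to 1 gene, out of 19938 genes measured in that way. Each of the 10 had 1 such probe set. RNA was hybridised to 4 Mouse Gene 1.0 ST arrays from Affymetrix, 2 from Mx1Cre-GABPa(FL/-) mice and 2 from Mx1Cre-GABPa(FL/+) mice. Mx1Cre-GABPa(FL/-) mice, labelled GABPα-deficient, carry a floxed and a null Gabpa allele, and the control mice carry a floxed and a wild-type allele. Both groups carried Mx1-Cre and received pIpC, a double-stranded RNA analogue that induces interferon and with it the recombinase, so both could lose the floxed allele. The Mx1 promoter answers to interferon in many cell types and does not limit recombination to stem cells. Animals had an age of 6 to 8 weeks and came from 4 generations of crosses to C57/BL6. Flt3-negative LSK cells (no lineage markers, Sca-1 and c-Kit on the surface) were sorted 4 days after the final dose. Whether a sample came from 1 animal or a pool is not stated, so the spread between arrays may be technical.

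Cathepsins are proteases named together for their work in acidic compartments, and they belong to different catalytic classes. Cathepsins B, C, H, K, L, S and Z are cysteine proteases of the papain family, D and E are aspartic proteases, and A is a serine carboxypeptidase. Most are made as inactive precursors, reach the lysosome through mannose 6-phosphate receptors and are held in check outside it by cystatins. In bone marrow they are best known from macrophages, osteoclasts and antigen-presenting cells, and cathepsin E also from red cell precursors. GABPα binds DNA through an ETS domain and works with a β subunit as the transcription factor GABP.

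All values are log2 expression values as deposited, and differences are the mean of the GABPα-deficient arrays minus the mean of the control arrays, with its moderated standard error (SE) from limma. The array medians lay between 5.87 and 6.01, and the correlation over probe sets was 0.944 between the deficient arrays and 0.96 between the control arrays. Gabpa itself read 6.43 and 7.85 on the deficient arrays and 8.43 and 7.28 on the control arrays, so the groups overlapped. Its difference of −0.71 (SE 0.68) was 0.0021 without deficient replicate 1, −1.42 without deficient replicate 2, −0.13 without control replicate 1 and −1.29 without control replicate 2. Group names here follow the labels alone. A probe set may lie outside the deleted exons and then checks nothing about the deletion. Across all probe sets 0% (0 of 35556) passed limma's test at an adjusted p under 0.05, and the lowest adjusted p was 0.169. At an unadjusted p under 0.05, 2360 probe sets were higher and 1865 lower, which cyclic loess turned to 1191 and 2349 and subtraction of column medians to 1537 and 2185. The median difference of all 19938 genes was 0.16, which cyclic loess moved to −0.00073.

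Promoter windows from RefSeq (GRCm38.p6), running from 250 bases before to 50 bases after a transcript start, were held for 7 of the 10 genes, in 8 windows, 2 of them for Ctsa. No window was held for Ctsb, Ctse and Ctsh, so no motif was searched for in these genes. The 8 windows were searched on both strands for motifs of factors known from blood cells or lysosomes, and stretches of 30 bases are shown for the windows that hold an E-box. Capitals mark the match. The sequence CACGTG is the E-box and TCACGTGA the core of the CLEAR element, which TFEB binds in lysosomal genes, so that each TCACGTGA also contains a CACGTG.
Ctsa, chr2:164833743-164833772, plus strand: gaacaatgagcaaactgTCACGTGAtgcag
Ctsd, chr7:142387908-142387937, minus strand: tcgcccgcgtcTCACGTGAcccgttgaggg
Ctsd, chr7:142388048-142388077, minus strand: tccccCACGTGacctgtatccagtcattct
Ctsl, chr13:64370739-64370768, minus strand: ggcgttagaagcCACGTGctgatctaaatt
The CLEAR core began 13 bases before the start in 1 of the Ctsa windows, which held another copy after the start, and 99 bases before the start of Ctsd. It was present in 0.974% of all 32851 windows, and CACGTG in 7.15%. The plain E-box began 245 bases before the start of Ctsd and 236 bases before that of Ctsl.

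The ETS site CCGGAAG, the form GABP prefers, was in none of the 8 cathepsin windows and in 8.86% of all windows, and CCGGAAGT, which contains it, was in 3.89% of all windows. The PU.1 site GAGGAAGT was found in Ctsc and Ctss and in 3.2% of all windows, and the shifted form AGAGGAAG in none of the 8 and in 4.55% of all. The GATA site AGATAA was found in Ctsz (11.2% of all windows) and the TATA box TATAAA in Ctss (13.6% of all). The KLF site CCACACCC (3.56% of all) and the AP-1 site TGACTCA (5.2% of all) were in none of the 8. A match describes these letters only. The 3 genes with an E-box differed widely in expression, as the values that follow show.

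The cathepsins were chosen with this comparison known, so their differences are a description and carry no test. Of the 10 genes, 6 had both deficient arrays above both control arrays, where 42.9% of all genes did, and 0 had both below, where 15.2% of all genes did. In the other 4 the groups overlapped. These shares depend on the scaling. After cyclic loess, 6 cathepsins and 23.1% of all genes lay above and 0 cathepsins and 23.5% of all genes below. After subtraction of column medians, 5 cathepsins and 33.9% of all genes lay above and 0 cathepsins and 18.9% below, since the groups of Ctsb then overlapped. No cathepsin passed limma's adjusted threshold. At an unadjusted p under 0.05, 4 were higher and 0 lower, beside 6.99% of all genes higher and 6.36% lower. The median of the 10 differences was 0.46, or 0.30 above the median of all genes. Ctse and Ctsl stood far above the rest, Ctsh, Ctss, Ctsb and Ctsd were moderately higher, and Ctsz, Ctsk, Ctsc and Ctsa lay near 0.

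**Figure D1:**
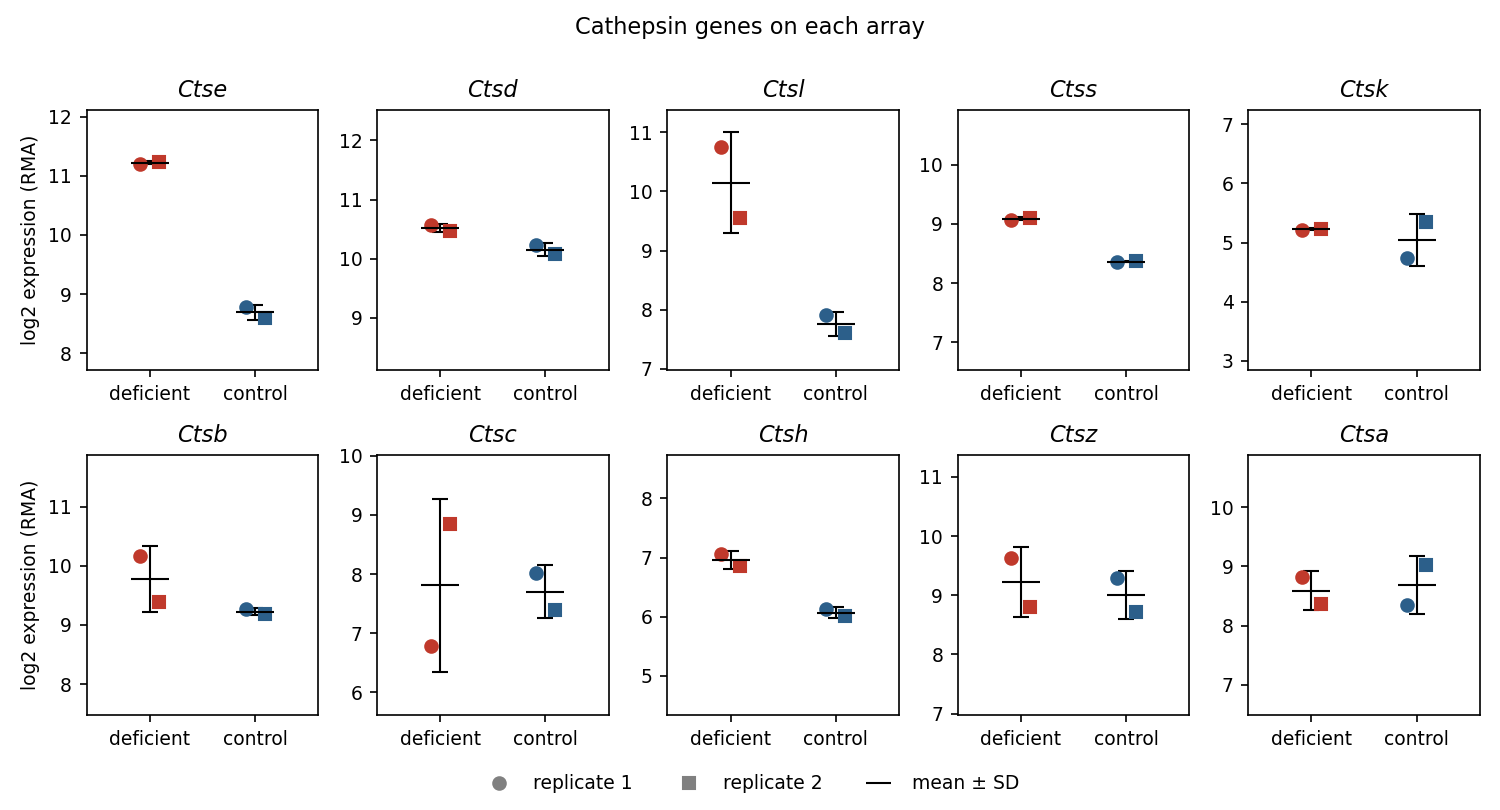
Log2 expression of each cathepsin gene on the 2 GABPα-deficient arrays (left, red) and the 2 control arrays (right, blue), with circles for replicate 1, squares for replicate 2 and bars for the mean ± SD (n = 2). Every vertical axis spans the same number of log2 units but has its own range. Ctse and Ctsl show the widest separation of the groups, and Ctsc the widest spread between the deficient arrays.

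Among the aspartic proteases, Ctse encodes cathepsin E, an intracellular protease of endosomes found in red cell precursors, lymphoid cells and gut epithelium. It read 11.21 and 11.24 on the deficient arrays, against 8.78 and 8.60 on the control arrays. The deficient arrays agreed closely, and the groups stood far apart. The gap between the control arrays was 0.18, larger than in 46.0% of all genes. The means were 11.22 ± 0.021 and 8.69 ± 0.13 (SD, n = 2 each), a difference of 2.53 (SE 0.15) or 5.79-fold. Ctsd encodes cathepsin D, the general aspartic protease of lysosomes. It read 10.56 and 10.48 on the deficient arrays and 10.23 and 10.07 on the control arrays. The groups did not overlap, but the difference of 0.37 (SE 0.15) was only 0.21 above the median of all genes. Of the 2 aspartic proteases, Ctse was the one with the wide separation.

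Among the cysteine endopeptidases, Ctsl encodes cathepsin L, a broad lysosomal protease that also processes proteins in the nucleus and secretory vesicles. It read 10.75 and 9.55 on the deficient arrays, against 7.91 and 7.61 on the control arrays. The groups did not overlap, and deficient replicate 1 stood well above deficient replicate 2. The difference was 2.39 (SE 0.47) or 5.23-fold, and it was 1.79 without deficient replicate 1 and 2.99 without deficient replicate 2. Ctss encodes cathepsin S, which trims the invariant chain from MHC class II molecules. It read 9.07 and 9.10 on the deficient arrays and 8.36 and 8.37 on the control arrays. The arrays of a group were nearly identical, so the difference of 0.72 (SE 0.14) was large beside the spread between replicates (SD 0.026 and 0.0059). With 1 array left out it stayed between 0.71 and 0.74.

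Ctsk encodes cathepsin K, the collagen-degrading protease of osteoclasts. It read 5.21 and 5.24 on the deficient arrays and 4.74 and 5.35 on the control arrays. Its groups overlapped, and its mean lay in the dimmer 50% of probe sets. The difference of 0.18 (SE 0.26) changed sign to −0.042 after cyclic loess and to −0.13 without control replicate 1, and it was 0.49 without control replicate 2.

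The cysteine exopeptidases showed small or unstable differences, apart from Ctsh. Cathepsin H is an aminopeptidase, and its gene read 7.07 and 6.85 on the deficient arrays, against 6.14 and 6.01 on the control arrays. The groups did not overlap, and the difference was 0.89 (SE 0.16) or 1.85-fold. After cyclic loess it was 0.74. Ctsb, which encodes cathepsin B, an endopeptidase that also removes dipeptides from the carboxyl end, read 10.17 and 9.38 on the deficient arrays and 9.27 and 9.18 on the control arrays. Only deficient replicate 1 lay well above the controls. The difference of 0.55 (SE 0.32) was 0.16 without deficient replicate 1, at the median of all genes, and 0.94 without deficient replicate 2.

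Ctsz encodes cathepsin Z, a carboxypeptidase, and read 9.63 and 8.80 on the deficient arrays and 9.29 and 8.71 on the control arrays. In both groups replicate 1 was the higher array, and the groups overlapped. Its difference of 0.22 (SE 0.39) was −0.20 without deficient replicate 1 and −0.068 without control replicate 2, but 0.64 without deficient replicate 2 and 0.51 without control replicate 1. Ctsc encodes cathepsin C, the dipeptidyl peptidase that activates the serine proteases of granules. It read 6.78 and 8.85 on the deficient arrays and 8.02 and 7.39 on the control arrays, so that the deficient arrays lay on either side of both controls. The difference of 0.11 (SE 0.80) was 1.14 without deficient replicate 1 and −0.92 without deficient replicate 2, and it was −0.20 without control replicate 2 and 0.42 without control replicate 1.

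The serine carboxypeptidase gene Ctsa encodes cathepsin A, which also shields the lysosomal enzymes neuraminidase and β-galactosidase in a complex. It read 8.82 and 8.36 on the deficient arrays and 8.34 and 9.03 on the control arrays. The groups overlapped, and the difference of −0.096 (SE 0.33) was 0.13 without deficient replicate 2 and 0.25 without control replicate 2. Without deficient replicate 1 it was −0.33, and without control replicate 1 −0.44. Ctsa was the only one of the 10 with a difference below 0.

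**Figure D2:**
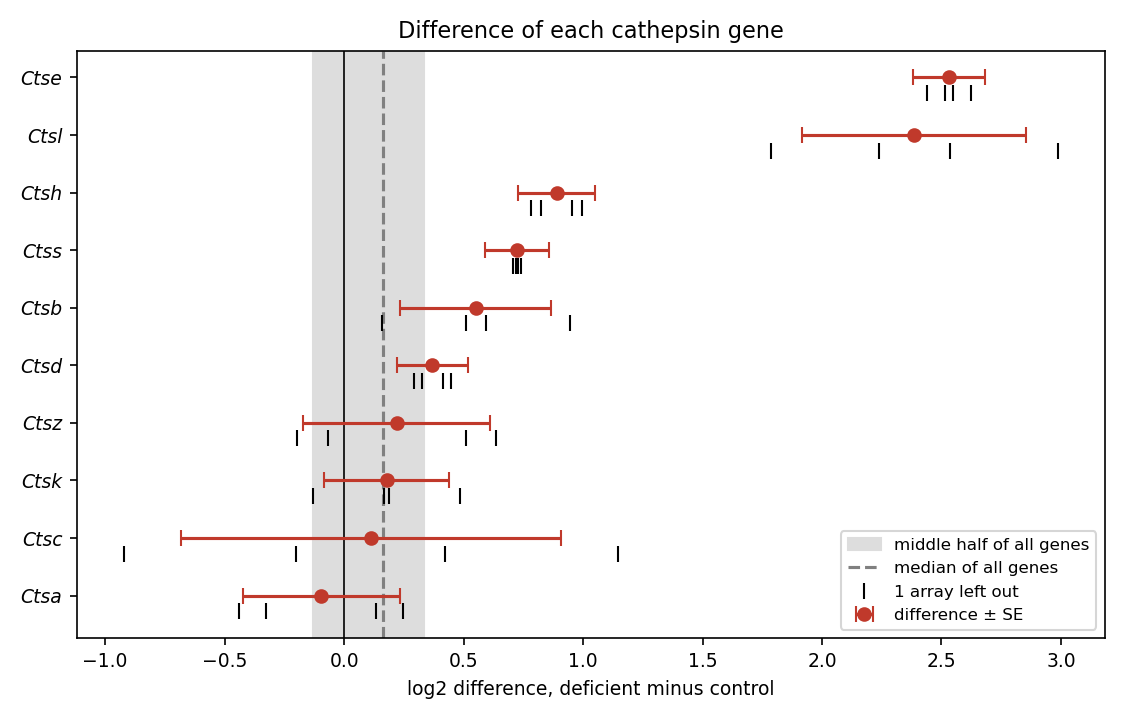
Log2 difference, deficient minus control, of each cathepsin gene (red point, with bars for limma's SE, n = 2 arrays a group), with black ticks for the 4 differences obtained with 1 array left out. The grey band spans the middle 50% of all genes (−0.13 to 0.33) and the dashed line marks their median of 0.16. The ticks of Ctsz, Ctsk, Ctsc and Ctsa fall on both sides of 0, and those of the other 6 genes lie above it, as they must where the groups do not overlap.

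The spread between replicate arrays varied widely among the cathepsins. The gap between the deficient arrays was 2.07 for Ctsc, larger than in 98.7% of all genes, and 1.20 for Ctsl, larger than in 94.3%. It was 0.83 for Ctsz and 0.79 for Ctsb. By contrast, the gap was 0.030 for Ctse, 0.036 for Ctss and 0.023 for Ctsk, larger than in 7.53%, 9.09% and 5.88% of all genes. The median gap of the 10 genes was 0.34 between the deficient arrays and 0.24 between the control arrays, against 0.22 and 0.20 for all genes. Ctsa, Ctsb, Ctsd, Ctsh, Ctsl and Ctsz were higher on deficient replicate 1, and Ctsc, Ctse, Ctsk and Ctss were higher on deficient replicate 2.

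For the 2 genes that differed by more than 1 log2 unit, the 3 genes with the closest pattern were sought by the root mean square distance of mean-centred values over the 4 arrays. Slc11a2, an iron transporter (distance 0.094), Atp1b2, a sodium pump subunit (0.13), and Emc9, a membrane insertase subunit (0.16), lay closest to Ctse. Slc11a2 read 8.67 and 8.70 on the deficient arrays and 6.30 and 6.29 on the control arrays. Gpm6a, a membrane glycoprotein best known from neurons (0.058), Pdia2, a disulfide isomerase (0.16), and Plpp1, a lipid phosphatase (0.18), lay closest to Ctsl. Gpm6a read 8.19 and 6.94 on the deficient arrays and 5.21 and 4.94 on the control arrays, with the same excess on deficient replicate 1 as Ctsl. The likeness rests on 4 arrays and describes the pattern only.

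The remaining cathepsins lay on both sides of 0. Of 13 further cathepsin genes listed, 11 were measured, and their median difference was 0.016, or −0.15 after subtraction of the median of all genes. It was 0.013 without control replicate 1, 0.078 without control replicate 2 and 0.080 without deficient replicate 2, and it turned to −0.13 after cyclic loess, −0.065 after subtraction of column medians and −0.34 without the 6 genes in the dimmer 50% of probe sets. Ctsg, the serine protease of neutrophil granules, read 11.08 and 10.01 on the deficient arrays and 10.98 and 11.02 on the control arrays. Ctsf, a papain-family protease, read 7.21 and 7.03 on the deficient arrays and 7.34 and 7.57 on the control arrays, with the deficient arrays lower by a log2 difference of −0.34 (SE 0.17). Ctso read 5.85 and 6.76 on the deficient arrays and 7.61 and 6.19 on the control arrays. Ctsw, a protease of cytotoxic lymphocytes, read 6.19 and 5.78 on the deficient arrays and 6.61 and 5.98 on the control arrays. Groups overlapped for Ctsg, Ctso and Ctsw. The 7 measured genes of the mouse placental cathepsin cluster had differences between 0.014 and 0.57, and 6 of them lay in the dimmer 50% of probe sets. Ctsll3 differed by 0.57 (SE 0.19), Cts8 by 0.47 (SE 0.15) and Cts7 by 0.28 (SE 0.18).

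Lists of inhibitors, partners and other lysosomal genes were read beside the cathepsins. In these lists, the further cathepsins included, 0 of 128 genes passed limma's adjusted threshold, and at an unadjusted p under 0.05, 10 were higher and 17 lower on the deficient arrays, against 6.99% higher and 6.36% lower of all genes. After cyclic loess these counts were 5 and 18, beside 704 higher and 1545 lower of all 19938 genes. Without the dimmer 50% of probe sets they were 5 and 15, beside 964 higher and 1348 lower of the 17778 probe sets kept. They also changed when 1 array was left out.

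Among 24 inhibitors, mostly cystatins and serpins, both deficient arrays lay above both controls for 10 (41.7%) and below for 3 (12.5%), against 42.9% above and 15.2% below of all genes. After cyclic loess the counts were 4 and 6 of the 24, against 23.1% above and 23.5% below of all genes. The median difference was 0.18, 0.097 without deficient replicate 2, 0.10 after subtraction of column medians and 0.039 after cyclic loess. It turned to −0.77 without the 17 genes in the dimmer 50% of probe sets. The genes furthest below 0 were Ctla2a and Ctla2b, which encode propeptide-like proteins, the first an inhibitor of cathepsin L, and Serpinb1a, an inhibitor of neutrophil serine proteases. Ctla2a read 9.27 and 8.58 on the deficient arrays, against 10.70 and 10.54 on the control arrays, a difference of −1.69 (SE 0.29, limma adjusted p = 0.305). Ctla2b differed by −1.72 (SE 0.28) and Serpinb1a by −1.94 (SE 0.60). The 2 Ctla2 genes are close relatives, and probes could read both. Deficient and control arrays of Serpinb1a stood at 8.20 and 6.60, against 9.34 and 9.34, so the size of its difference rested largely on deficient replicate 2 and was −1.14 without it. Among the cystatins Cst10, in the dimmer 50% of probe sets, differed by 0.52 (SE 0.14), and by 0.32 after cyclic loess. Cst3, cystatin C, read 11.76 and 11.10 on the deficient arrays and 11.74 and 11.76 on the control arrays.

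Of 15 measured genes for activation, sorting and partners of cathepsins, both deficient arrays lay above both controls for 6 (40.0%) and below for 3 (20.0%), against 42.9% above and 15.2% below of all genes. The median difference was 0.23, 0.044 without deficient replicate 1, 0.42 without deficient replicate 2, 0.15 after subtraction of column medians and 0.075 after cyclic loess. Ifi30, the thiol reductase GILT of antigen-processing compartments, read 9.86 and 9.58 on the deficient arrays, against 7.35 and 6.12 on the control arrays, a difference of 2.99 (SE 0.48, limma adjusted p = 0.291). Gnptab, which encodes the enzyme that builds the mannose 6-phosphate signal, read 6.60 and 6.58 on the deficient arrays, against 8.88 and 8.12 on the control arrays (difference −1.91, SE 0.31). Sort1, the sorting receptor sortilin, differed by −1.51 (SE 0.26), and Neu1, the neuraminidase held by cathepsin A, by 0.51 (SE 0.16). Lgmn, the asparaginyl protease legumain, which matures several cathepsins, read 8.98 and 6.22 on the deficient arrays and 5.67 and 5.99 on the control arrays. Lgmn falls outside the naming rule and was picked after its values were seen, as were Cst3, Elane and Prtn3.

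Of 14 granule proteases, most of which need cathepsin C for activation, both deficient arrays lay above both controls for 7 (50.0%) and below for 0, against 42.9% above and 15.2% below of all genes. After cyclic loess the counts were 7 (50.0%) and 3 (21.4%), against 23.1% above and 23.5% below of all genes. Their median difference was 0.41, 0.13 without deficient replicate 2, 0.22 after cyclic loess and 0.83 without the dimmer 50% of probe sets. Gzmb, granzyme B, read 6.71 and 7.10 on the deficient arrays, against 5.11 and 5.25 on the control arrays, a difference of 1.73 (SE 0.20, limma adjusted p = 0.231). The mast cell protease gene Mcpt4 read 10.16 and 6.75 on the deficient arrays and 5.002 and 5.27 on the control arrays. Mcpt8, a basophil protease, differed by 0.83 (SE 0.24) and Tpsab1, a mast cell tryptase, by 0.50 (SE 0.14). The neutrophil proteases Elane and Prtn3 read 9.38 and 9.46 on deficient replicate 1 and 8.08 and 7.99 on deficient replicate 2, with control arrays between 9.28 and 9.48, so deficient replicate 2 alone was low.

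Other lysosomal genes lay on both sides of 0. Of 31 other lysosomal hydrolases, both deficient arrays lay above both controls for 3 (9.68%) and below for 7 (22.6%), against 42.9% above and 15.2% below of all genes. After cyclic loess the counts were 1 (3.23%) and 10 (32.3%), against 23.1% above and 23.5% below of all genes. The median difference was −0.075. That median was 0.081 without deficient replicate 2, −0.28 without deficient replicate 1, −0.25 without control replicate 1, −0.12 without control replicate 2, −0.24 after cyclic loess and −0.16 after subtraction of column medians. Galc, galactosylceramidase, differed by −1.13 (SE 0.23), the mannosidase genes Man2b1 and Manba by −0.69 (SE 0.16) and −0.60 (SE 0.18), and Fuca1, a fucosidase, by 0.48 (SE 0.14). Of 35 genes of the lysosomal membrane, its proton pump and its regulators, 5 lay above (14.3%) and 11 below (31.4%), against 42.9% above and 15.2% below of all genes. Their median was 0.015, and it was 0.16 without deficient replicate 2 and −0.21 without deficient replicate 1. It turned to −0.060 after cyclic loess, −0.066 after subtraction of column medians and −0.020 without the dimmer 50% of probe sets. Laptm5, a lysosomal membrane protein of blood cells, differed by −1.23 (SE 0.29), Npc1, a cholesterol transporter, by −0.86 (SE 0.19), Ctns, the cystine transporter, by −0.76 (SE 0.21), and Atp6v0a1, a proton pump subunit, by 0.88 (SE 0.23). Tfeb, which binds the CLEAR element and was picked after its values were seen, read 6.94 and 6.50 on the deficient arrays and 6.66 and 6.66 on the control arrays. No test compared these lists with each other.

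**Figure D3:**
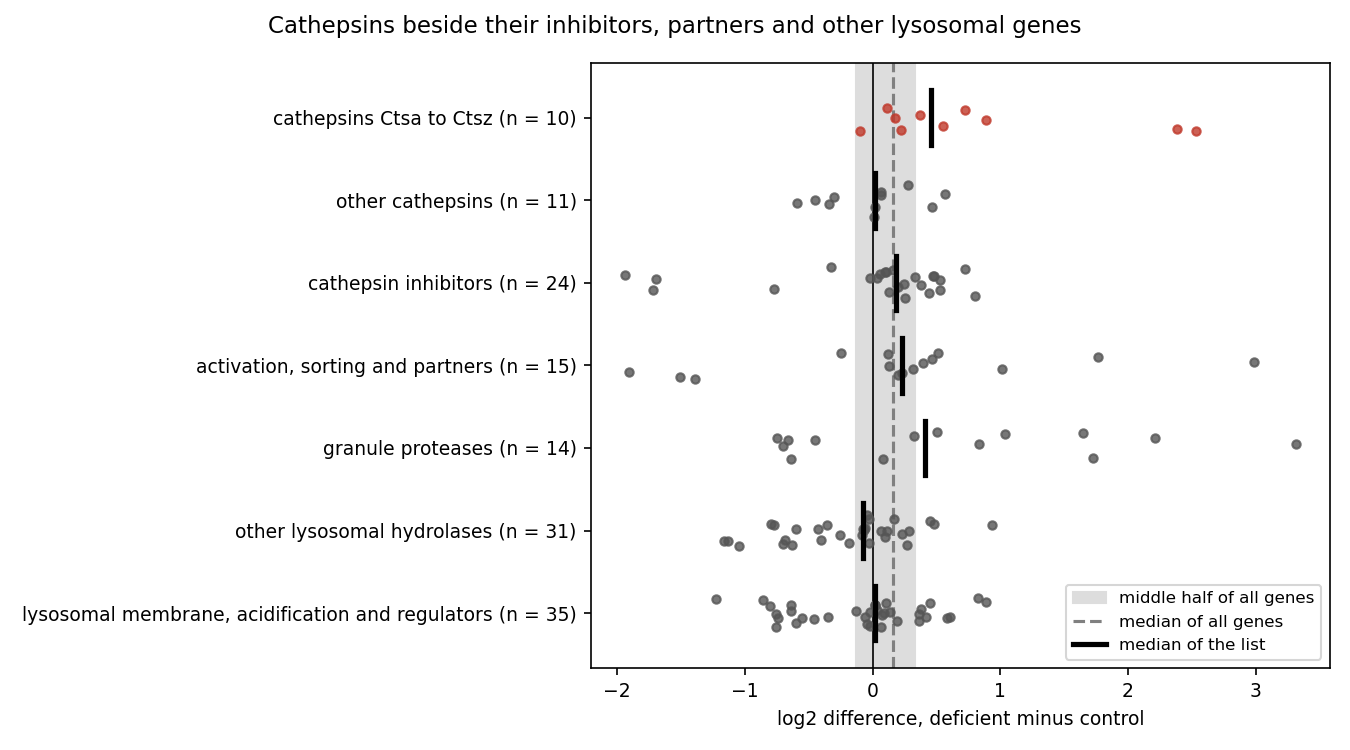
Log2 difference, deficient minus control, of every measured gene (points) in the cathepsins Ctsa to Ctsz (red) and in 6 related lists (grey), with a black bar for each list's median. The grey band spans the middle 50% of all genes and the dashed line marks their median of 0.16. The medians run from −0.075 for other lysosomal hydrolases to 0.46 for the cathepsins, which were chosen with this comparison known.

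Markers of several other cell types also read higher on the deficient arrays. In whole-sample RNA, fewer cells of a type and less RNA per cell cannot be told apart. Of 20 erythroid markers, both deficient arrays lay above both controls for 17 (85.0%) and below for 0, against 42.9% above and 15.2% below of all genes. Their mean level was 8.83 and 9.32 on the deficient arrays and 7.09 and 7.18 on the control arrays. Klf1, a regulator of red cell genes, read 9.68 and 9.65 on the deficient arrays and 7.90 and 7.90 on the control arrays. Cldn13, a claudin, differed by 3.69 (SE 0.15), Blvrb, biliverdin reductase B, by 2.96 (SE 0.16) and Ank1, the red cell ankyrin, by 2.13 (SE 0.15). The part of red cell precursors in the Ctse difference was not tested.

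Of 22 macrophage markers, both deficient arrays lay above both controls for 19 (86.4%) and below for 0, against 42.9% above and 15.2% below of all genes. After cyclic loess the counts were 14 (63.6%) and 1 (4.55%), against 23.1% above and 23.5% below of all genes. Their mean level was 7.12 and 6.63 on the deficient arrays and 5.88 and 5.96 on the control arrays, so deficient replicate 1 was the higher array. It was also the higher array for 6 of the 10 cathepsins, Ctsl and Ctsb among them, and for 9460 of all 19938 genes. The mean levels of the stromal, endothelial, mast cell, granulocyte and megakaryocyte lists were also higher on deficient replicate 1. The erythroid, osteoclast, dendritic, B and plasma cell, T and NK cell and stem cell lists were higher on deficient replicate 2. Spic, a factor of iron-recycling macrophages, differed by 1.47 (SE 0.21), Vcam1, an adhesion molecule, by 2.095 (SE 0.32), Cd5l, a secreted macrophage protein, by 2.09 (SE 0.34) and Mrc1, the mannose receptor, by 1.61 (SE 0.30). Of 15 stromal, bone and adipocyte markers 11 lay above (73.3%) and 1 below (6.67%), against 42.9% above and 15.2% below of all genes. Their mean level was 6.63 and 6.42 on the deficient arrays and 5.39 and 5.58 on the control arrays. Sfrp4, a secreted Wnt antagonist, differed by 4.09 (SE 0.15) and Sparc, a matrix glycoprotein, by 3.80 (SE 0.24). The parts of macrophages and stromal cells in the Ctsl and Ctsb differences were not tested.

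Among 10 osteoclast markers 5 lay above (50.0%) and 2 below (20.0%), near the 42.9% and 15.2% of all genes. Of these 10, 3 lay above and 4 below after cyclic loess, against 23.1% above and 23.5% below of all genes. The mean level was 5.84 and 6.08 on the deficient arrays and 5.86 and 5.74 on the control arrays, beside overlapping groups for Ctsk. Mmp9 differed by 0.62 (SE 0.15), Ocstamp by 0.61 (SE 0.16) and Acp5 by 0.93 (SE 0.46). Itgb3 went the other way, with a difference of −0.63 (SE 0.28). The mean level of 16 dendritic cell markers was 6.65 and 6.76 on the deficient arrays and 6.47 and 6.77 on the control arrays. This mean includes Flt3, also on the stem cell and gate list, which differed by −3.03 (SE 0.35). Of the 16 genes 8 lay above (50.0%) and 1 below (6.25%), against 42.9% above and 15.2% below of all genes. The part of dendritic cells in the Ctss difference was not tested. For 15 B and plasma cell markers the mean level was 6.78 and 6.97 on the deficient arrays, against 6.15 and 6.20 on the control arrays. Granulocyte and monocyte markers stood at 7.91 and 7.84, against 7.99 and 7.59 in controls, and T and NK cell markers at 5.92 and 6.28, against 5.72 and 5.73 in controls. Mast cell and basophil markers stood at 7.76 and 7.11, against 6.56 and 6.83 in controls, and endothelial markers at 7.27 and 6.82, against 6.32 and 6.29 in controls. No detection calls were used, so no marker could be called absent.

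Most genes of the stem cell and gate list, which also holds Flt3, were lower. Of 13 stem cell and gate markers 11 (84.6%) had both deficient arrays below both controls, against 15.2% of all genes. Their mean level was 6.74 and 6.93 on the deficient arrays, against 8.44 and 8.21 on the control arrays. Cd34, a mucin of stem and progenitor cells, differed by −3.54 (SE 0.22), Flt3, whose protein the gate excluded, by −3.03 (SE 0.35), Meis1, a stem cell homeobox factor, by −3.01 (SE 0.39) and Adgrg1, an adhesion receptor, by −2.06 (SE 0.15). The 6 measured megakaryocyte markers stood at 7.56 and 6.96 on the deficient arrays, against 8.46 and 8.56 on the control arrays, and Itga2b, the integrin CD41, differed by −1.79 (SE 0.20). Of the genes used in the gate, Kit read 7.70 and 8.50 on the deficient arrays and 10.21 and 10.21 on the control arrays. The Sca-1 gene Ly6a had no probe set of its own.

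**Figure D4:**
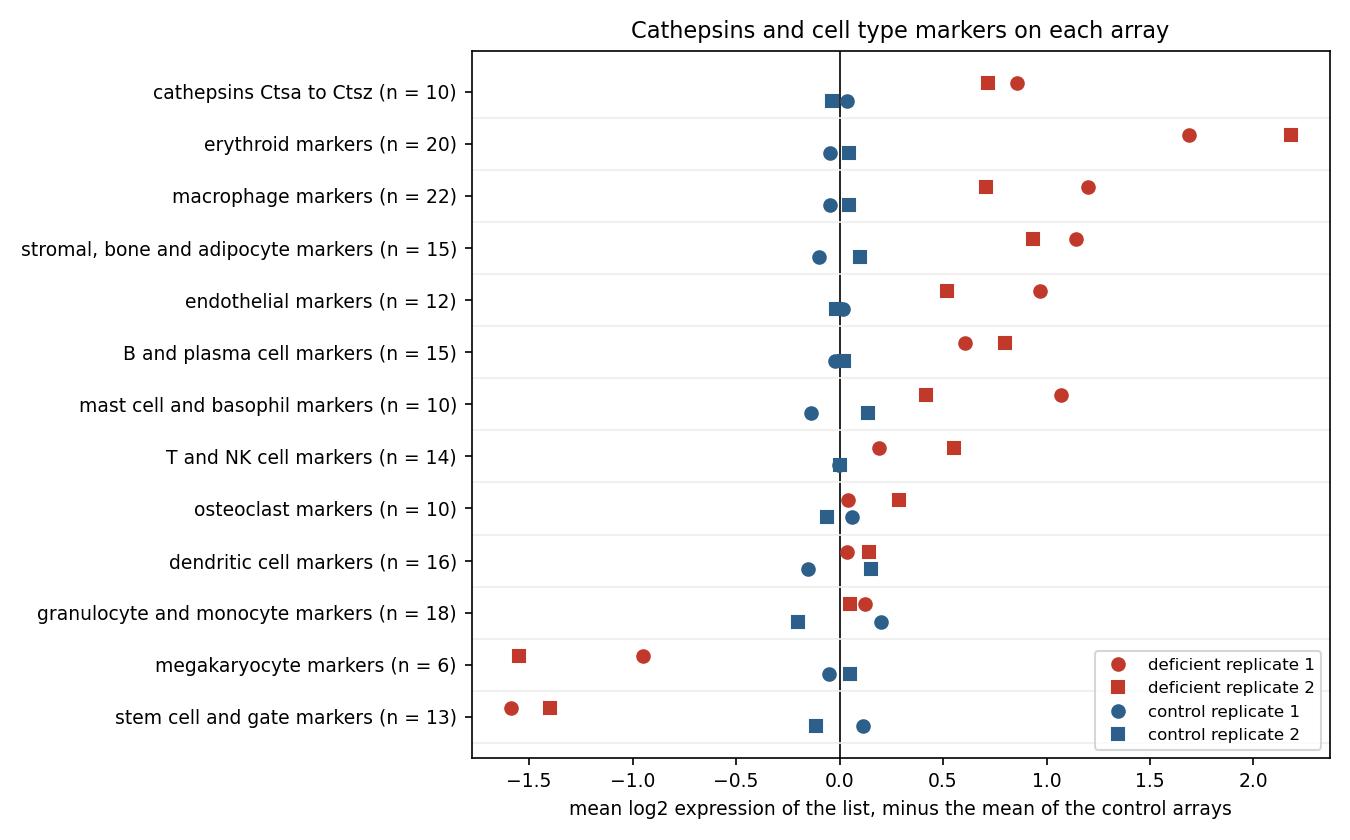
Mean log2 expression of the cathepsins Ctsa to Ctsz and of each cell type list on the deficient arrays (red) and the control arrays (blue), after subtraction of the mean of the control arrays, with circles for replicate 1 and squares for replicate 2. The mean of the cathepsins lay 0.86 and 0.72 above the controls. Ctse (difference 2.53) and Ctsl (2.39) weighed most in it, and the median difference of the 10 genes was 0.46. Erythroid markers lay 1.69 and 2.18 above the controls, macrophage markers 1.20 and 0.71, and stem cell and gate markers at −1.59 and −1.40.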

How the data were processed

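RNA of Flt3-negative LSK cells was measured on 4 arrays, 2 labelled GABPα-deficient and 2 control. The deposited values are on a log2 scale, 1 per probe set and array, made by the authors with RMA and Partek, per the submitters' processing notes. RMA corrects background, normalizes between arrays and summarises probes. The values ran from 1.98 to 13.7, and no further scaling was applied. The build and gene models behind the table: not given in the sources used here. Arrays carry no read depth, and with 4 of them the precision is low.

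Names of probe sets came from the platform annotation, with symbols updated by Entrez number through the RefSeq table of GRCm38.p6. Of 35556 probe sets, 21789 had 1 symbol, 1621 several and 12146 none. The probe set with the highest mean stood for a gene. Groups were compared with limma 3.58.1 in R 4.3.3 (lmFit and eBayes, genotype as only term, Benjamini-Hochberg adjustment over all 35556 probe sets, threshold 0.05), and the procedure was tested on simulated data. Summaries and figures used Python 3.11.15.

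The 10 cathepsins, the 6 related lists, the 12 cell type lists and the motifs were chosen with earlier results of these data known. Named genes were the 10 cathepsins, Ctsf, Ctsg, Ctso, Ctsw and Gabpa, up to 4 genes a list with the smallest unadjusted p among those whose groups did not overlap, and the 3 nearest genes of any cathepsin that differed by over 1. Kit and Ly6a were added for the gate. The alternatives were cyclic loess, subtraction of column medians, removal of the dimmer 50% of probe sets, a replicate block, eBayes with a trend, the mean over a gene's probe sets, and each array left out in turn. The replicate numbers are not stated to pair the arrays, and the differences between replicates 1 and 2 correlated at −0.0883 between the groups over all probe sets.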

Additional observations from a re-analysis of the deposited data

How the results depend on the processing

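The count of probe sets past the adjusted threshold was 0 under all 10 alternatives, as was the count among the 128 genes of the related lists. At an unadjusted p under 0.05, 2360 probe sets were higher and 1865 lower. The numbers higher and lower were 1191 and 2349 after cyclic loess, 1537 and 2185 after subtraction of column medians, 964 and 1348 without the dimmer 50% of probe sets, and 1341 and 1666 with a replicate block. They were 714 and 1590 without control replicate 1, and 1053 and 2295 without control replicate 2. In these 6 settings, and without deficient replicate 1, lower probe sets outnumbered higher ones. Higher ones remained more numerous with the trend, with the mean over probe sets and without deficient replicate 2. With the replicate block, 4 of the 128 genes of the related lists were higher and 12 lower, beside 726 higher and 1077 lower of all 19938 genes. The median difference of the 10 cathepsins, 0.46, was 0.50 to 0.67 with 1 array left out, 0.67 being the value without deficient replicate 2, and 0.42 after cyclic loess. With the replicate block it was 0.46. The block, the trend, the dim filter and the mean over probe sets cannot move the difference of a gene with 1 probe set, and a left-out array cannot move it beyond the SD between replicates. Of the 2 scalings, those that moved a cathepsin by more than that SD gave Ctsh at 0.74 and Ctss at 0.67 after cyclic loess and Ctss at 0.64 after subtraction of column medians. Under the scalings Ctsk alone changed sign (−0.042 after cyclic loess). Removal of dim probe sets left no value for Ctsk. Medians of the related lists, some of which turned sign, stand beside those lists. The cause of these changes was not tested. With 2 arrays a group, an exact permutation test of a single value cannot go below p = 0.333 (two-sided).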
